A study of Mus musculus with 4 samples.

Results

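The regulators of epithelial-mesenchymal transition (EMT) examined here are 8 genes: the transcriptional repressors Snai1, Snai2, Zeb1, Zeb2 and Twist1, the intermediate filament gene Vim, and the splicing factors Esrp1 and Esrp2. Their members are all probe sets of the expression array whose only gene symbol is 1 of these 8, which gave 19 of 45101 probe sets (8 of 18193 named genes). The data are 4 arrays of total RNA from mouse embryonic stem (ES) cells: 2 arrays of SOCS3 null cells and 2 arrays of wildtype cells. SOCS3 is an intracellular brake on cytokine receptors that signal by way of JAK kinases and STAT3, and leukemia inhibitory factor (LIF), which acts through that route, is among the keywords of the study together with endoderm, SHP2 and ERK1/2. The labels name no strain, allele, clone, passage or culture condition, so how the SOCS3 null cells were made, whether they are 1 clone, and whether feeder cells were present, is not known here. Separate cultures are not stated either, so a p-value reflects only how far these 4 arrays scatter, which may be technical scatter.

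In EMT, epithelial cells give up their junctions and become migratory. SNAI and ZEB proteins are zinc finger repressors that bind E-box sequences in the promoters of epithelial genes such as Cdh1 (E-cadherin), TWIST1 is a basic helix-loop-helix factor, and ESRP1 and ESRP2 are RNA-binding proteins that hold the epithelial form of spliced transcripts. ES cells are epithelial-like and express E-cadherin, while in the mouse embryo the step from primitive to parietal endoderm is an EMT in which cells gain SNAI1 and vimentin.

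The SOCS3 null arrays differed from the wildtype arrays at 3 of these genes. Snai1 rose in SOCS3 null cells by 2.19 on the log2 scale, from a dim wildtype level. Esrp1 fell by 1.84. Its relative Esrp2 rose by 0.59 on 1 of 2 probe sets, the least firm of the 3 calls (limma adjusted p = 0.0888 without the filter). Snai2, Zeb1, Zeb2, Twist1 and Vim did not pass the test on any of their tested probe sets. Of the 19 probe sets, 14 reached the filter on dim values and were tested, and 2 were called higher and 1 lower. Over the whole array 15.9% of 27022 tested probe sets were called, 8.55% higher and 7.3% lower, so the share among the members was close to that of the array. A call means an adjusted p (Benjamini-Hochberg) under 0.05 in a limma fit of log2(intensity + 16) over all tested probe sets. The genotypes did not overlap, with both SOCS3 null arrays above or both below the wildtype arrays, for 8 of the 14 tested and 10 of the 19 probe sets, where 62% of all tested and 58% of all probe sets did so.

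**Figure D1:**
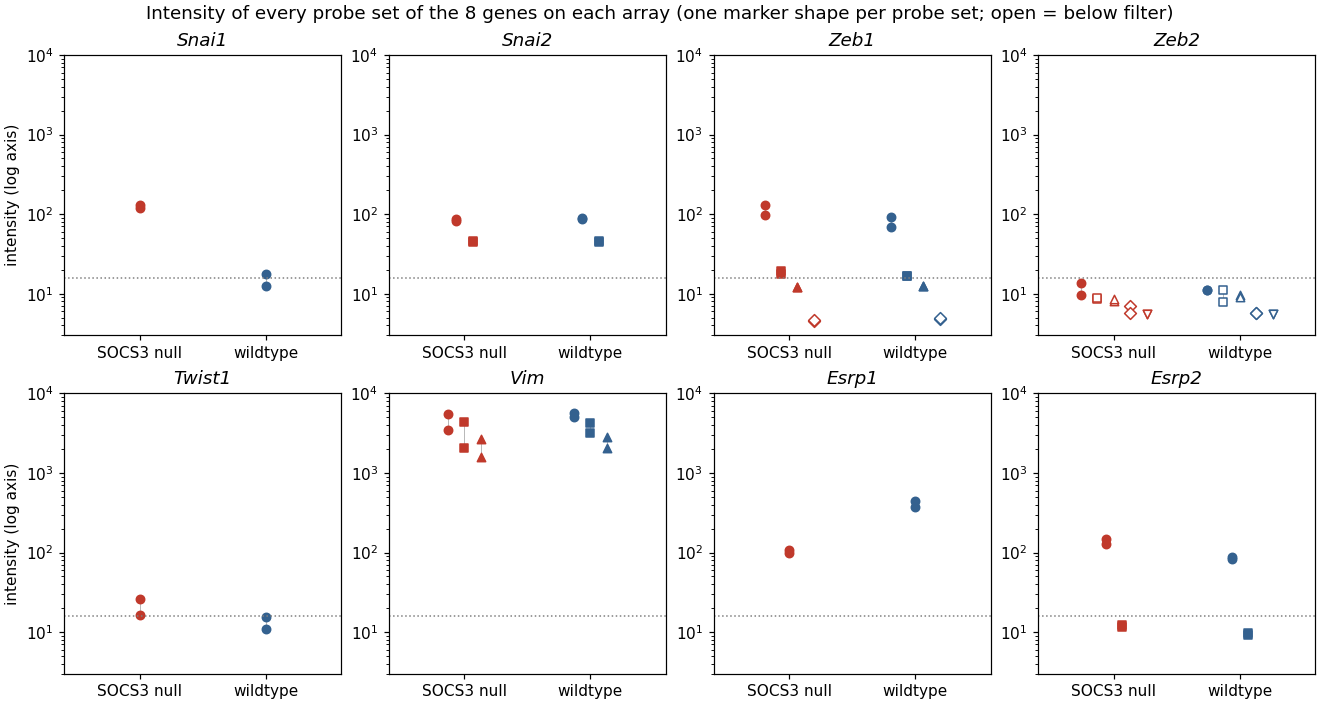
Intensity on a log axis of every probe set of the 8 genes, with SOCS3 null arrays in red and wildtype arrays in blue; each marker shape is 1 probe set, open markers lie below the filter, and the dotted line is the mean of the array medians. Snai1 and Esrp1 stand apart between genotypes, Vim spreads most within SOCS3 null cells, and every Zeb2 marker lies below the dotted line.

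The targeted gene was checked first. The brightest probe set of Socs3 had intensities of 19.3 and 12.9 on the SOCS3 null arrays, against 3024 and 1884 on the wildtype arrays, a log2 change of -6.23 (SE 0.28, limma adjusted p = 0.00847). All 3 probe sets of Socs3 were lower on both SOCS3 null arrays, as the labels say, although the extent of the deletion is not stated. The median intensity was 15.8 on each SOCS3 null array and 16 on each wildtype array, and an intensity near these medians is read as dim. The log2 values of tested probe sets correlated at 0.988 between the SOCS3 null arrays, at 0.995 between the wildtype arrays and at 0.948 to 0.957 across genotypes, as a description across probe sets.

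Snai1 encodes SNAI1, a repressor of Cdh1 and other epithelial genes, and was measured by 1 probe set (1448742_at). Its intensities were 129 and 120.4 on the SOCS3 null arrays, against 12.5 and 17.5 on the wildtype arrays. Both SOCS3 null arrays were far above both wildtype arrays, and the wildtype values lay at about the array median. The means were 125 ± 6.37 in SOCS3 null and 15.0 ± 3.54 in wildtype cells (SD, n = 2 each), a ratio of 8.35, and the log2 change was 2.19 (SE 0.11, limma adjusted p = 0.009). Because the wildtype level was dim, the pseudocount sets much of its size, with a change of 3 at a pseudocount of 1 and of 1.26 at 64. Fits that dropped any single array gave 2.07 to 2.31, with unadjusted p of 0.00135 to 0.00624, and none of them passed adjustment. Among 12732 genes ordered by their change from the highest down, Snai1 stood at 156.

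The 250 bases before the annotated start of Snai1 are shown because SNAI1 binds E-boxes and, in human cells, also the promoter of its own gene. The RefSeq sequence (GRCm38.p6, plus strand, chr2:167537945-167538194) is set beside that of Epcam (plus strand, chr17:87635729-87635978), an epithelial adhesion gene that fell in SOCS3 null cells. Capitals mark the E-box CACCTG, which reads CAGGTG on the other strand.
Snai1: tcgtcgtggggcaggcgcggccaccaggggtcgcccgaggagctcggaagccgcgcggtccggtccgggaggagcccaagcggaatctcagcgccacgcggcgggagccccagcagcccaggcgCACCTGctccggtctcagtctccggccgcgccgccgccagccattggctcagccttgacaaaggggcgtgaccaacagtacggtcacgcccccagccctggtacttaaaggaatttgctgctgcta
Epcam: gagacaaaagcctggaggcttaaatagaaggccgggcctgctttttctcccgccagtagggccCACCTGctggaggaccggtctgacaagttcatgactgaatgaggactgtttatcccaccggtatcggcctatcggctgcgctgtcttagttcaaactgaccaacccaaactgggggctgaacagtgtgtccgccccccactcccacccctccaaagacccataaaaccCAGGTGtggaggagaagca
The Snai1 window holds 1 such E-box, CACCTG beginning 126 bases before the start, and the Epcam window holds 2, beginning 187 and 19 bases before it. Searched on both strands, this motif lay in 17.2% of 32851 RefSeq promoter windows of 250 bases. Of 23 windows of the epithelial genes described below, 11 held it, or 47.8%. That list was chosen for repression in EMT, so its share is not an independent reading. This counts windows, of which a gene can have several, and Cdh1 had none. Base composition was not matched, and genes that rose and genes that fell were not counted apart. Among the members, 4 of 8 genes had a window in the RefSeq table (Snai1, Vim, Twist1 and Zeb2, with 7 windows), and Snai1 was the gene with a match. The motif TTCNNNGAA, the core of STAT binding sites and the same on both strands, was not in the Snai1 window; it lay in 2 of the 7 member windows, both of Zeb2 and overlapping, and in 7.02% of all windows. A match describes the letters of the window and is no evidence of binding.

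Esrp1 and Esrp2 encode related RNA-binding proteins that favour epithelial exons, for example in Fgfr2, Cd44, Ctnnd1 and Enah. Esrp1 had 1 probe set (1454681_at), with intensities of 108 and 98.3 on the SOCS3 null arrays, against 376 and 450.1 on the wildtype arrays. The groups did not overlap, and the SOCS3 null mean was 0.25 times the wildtype mean (103 ± 6.98 against 413 ± 52.6, SD, n = 2 each). The log2 change was -1.84 (SE 0.12, limma adjusted p = 0.0111), ran from -1.98 to -1.51 over the alternatives, and placed Esrp1 at 103 among 12732 genes ordered from the lowest change up. All SOCS3 null values of this probe set stayed well above the array medians.

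The brighter probe set of Esrp2 (1433683_at) moved the other way. Its intensities were 146 and 127 on the SOCS3 null arrays, against 88.1 and 82.8 on the wildtype arrays. Both SOCS3 null arrays were higher, with a log2 change of 0.59 (SE 0.10, limma adjusted p = 0.0387). That call is the least firm of the 3: the adjusted p was 0.0888 without the filter and 0.0526 with a robust variance trend, and ran from 0.0265 to 0.218 over the alternatives. Without the filter 3.85% of all probe sets were called, 2.12% higher and 1.72% lower, and the members called were Snai1 and Esrp1. The other probe set (1419977_s_at) read 12.3 and 11.5 on the SOCS3 null arrays, against 9.79 and 9.11 on the wildtype arrays. It differed by 0.13 (limma adjusted p = 0.289) and reached the filter floor, an intensity of about 10.4, through the SOCS3 null arrays. Since it passed the filter where it was high, its direction is no second reading of the called probe set.

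**Figure D2:**
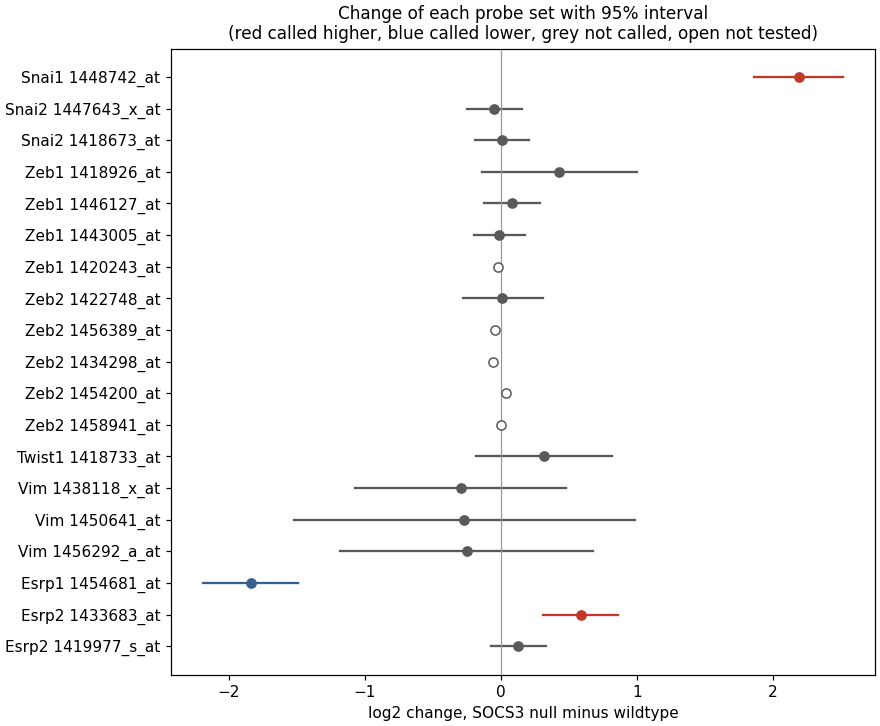
Log2 change, SOCS3 null minus wildtype, of all 19 probe sets with the 95% interval of the limma fit; red is called higher, blue called lower, grey tested and not called, and open circles were not tested. Snai1 (2.19), Esrp1 (-1.84) and 1 probe set of Esrp2 (0.59) stand off the zero line, and the intervals of Vim are the widest.

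Snai2, the other E-box repressor of the SNAI pair and a gene of neural crest, was nearly level across all arrays. Its brighter probe set (1447643_x_at) had intensities of 86.5 and 82.8 on the SOCS3 null arrays, against 86.5 and 89.5 on the wildtype arrays. The second (1418673_at) had 46.2 and 44.5 on the SOCS3 null arrays, against 44.5 and 45.6 on the wildtype arrays. The genotypes overlapped on both, and the log2 changes were -0.05 (95% interval -0.25 to 0.16) and 0.01 (-0.19 to 0.21). These intervals do not reach the change of Snai1. Snai3, a further family member that was counted in the list of other EMT factors, rose by 1.89 (1.30 to 2.29 over the alternatives, limma adjusted p = 0.0326 over genes), with 254 and 139.8 on the SOCS3 null arrays, against 31.1 and 48.7 on the wildtype arrays. Of the 2 tested probe sets of Snai3, 1 was called.

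Zeb1 and Zeb2 encode zinc finger homeodomain repressors of E-cadherin. Of 4 probe sets of Zeb1, the brightest (1418926_at) had intensities of 131 and 98.2 on the SOCS3 null arrays, against 69.2 and 92.8 on the wildtype arrays. The closest values of the genotypes, 98.2 and 92.8, nearly met. The log2 change was 0.43 (SE 0.20, 95% interval -0.14 to 1, limma adjusted p = 0.238). That interval holds no change as well as a rise of up to 1. The others were dim. Probe set 1446127_at read 17.7 and 19.3 on the SOCS3 null arrays, against 16.6 and 16.5 on the wildtype arrays. Probe set 1443005_at read 12.3 and 12.3 on the SOCS3 null arrays, against 12.5 and 12.5 on the wildtype arrays, and 1420243_at, below the filter, read 4.54 and 4.69 on the SOCS3 null arrays, against 4.87 and 4.88 on the wildtype arrays. These differences were at most 0.08 in size on the log2 scale.

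Zeb2 was dim throughout. Its 5 probe sets lay between 5.48 and 13.6 on the SOCS3 null arrays and between 5.56 and 11.2 on the wildtype arrays, all below the array medians. The single probe set that passed the filter (1422748_at) read 9.55 and 13.6 on the SOCS3 null arrays, against 11.2 and 11.2 on the wildtype arrays, a log2 change of 0.01 (SE 0.10, limma adjusted p = 0.946). At these intensities a change in Zeb2 was not detectable, which does not show that it is absent.

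Twist1, a factor of mesoderm and cranial neural crest, was measured by 1 probe set (1418733_at). Its intensities were 25.7 and 16.2 on the SOCS3 null arrays, against 11 and 15.7 on the wildtype arrays. The lower SOCS3 null array stood beside the higher wildtype array, close to the array medians. The log2 change was 0.32 (SE 0.18, 95% interval -0.18 to 0.82, limma adjusted p = 0.302).

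Vim encodes vimentin, the intermediate filament protein of mesenchymal cells, and its probe sets were bright on every array. The brightest (1438118_x_at) had intensities of 5522 and 3422 on the SOCS3 null arrays, against 4982 and 5702 on the wildtype arrays. The second (1450641_at) had 4423 and 2049 on the SOCS3 null arrays, against 3145 and 4186 on the wildtype arrays, and the dimmest (1456292_a_at) had 2647 and 1566 on the SOCS3 null arrays, against 2083 and 2809.7 on the wildtype arrays. On all 3 probe sets SOCS3 null replicate 2 was the lowest array, and SOCS3 null replicate 1 lay between or near the wildtype arrays. The log2 changes were -0.29, -0.27 and -0.25 (SE 0.27, 0.44 and 0.32; limma adjusted p from 0.521 to 0.724), and their 95% intervals reached from -1.52 to 0.99 on the second. Without SOCS3 null replicate 2 they were 0.05, 0.28 and 0.13, so the direction rests on that array. The brightest and the dimmest were annotated to the same accession and may share target sequence, so they are not independent readings.

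The arrays of a genotype differed in Vim in the same way as in genes of fibroblasts. The SOCS3 null arrays were 0.69 or more apart on the log2 scale on each Vim probe set, a gap reached by 3.83% of all tested probe sets. Of 20 tested mesenchymal genes of EMT, 17 were both higher on SOCS3 null replicate 1 than on replicate 2 and lower on wildtype replicate 1 than on replicate 2. Of 11 tested fibroblast and feeder cell markers, 10 showed this pattern, against 23% of all genes tested. These markers share Col1a1, Col1a2 and Col3a1 with the mesenchymal list. The pattern, which reads direction and not size, also held for 6 of the 8 members: Vim, Zeb1, Twist1, Snai1, Snai2 and Esrp1. Replicate 1 minus replicate 2 was 0.09 (SOCS3 null) and -0.23 (wildtype) for Snai1, 0.12 and -0.25 for Esrp1, and 0.05 and -0.04 for Snai2. The median absolute gap over tested probe sets was 0.145 between the SOCS3 null arrays and 0.115 between the wildtype arrays. The SOCS3 null gaps of Snai1, Esrp1 and Snai2 and the wildtype gap of Snai2 were smaller than these. The wildtype gaps of Snai1 and Esrp1 were larger. The median gap of the mesenchymal genes was 0.70 between the SOCS3 null arrays (replicate 1 minus replicate 2) and -0.69 between the wildtype arrays, where the medians over all genes were 0.00 and 0.01. Col3a1, a fibrillar collagen of fibroblasts, had intensities of 367 and 169 on the SOCS3 null arrays, against 214 and 389.7 on the wildtype arrays. The actin gene Acta2 had 2137 and 1291 on the SOCS3 null arrays, against 1155 and 2009.5 on the wildtype arrays. Epithelial genes did not share the pattern, which held for 2 of 21. In RNA from whole cultures, fewer cells of a type and less RNA per cell cannot be told apart. The part of fibroblast RNA in the values of the members was not tested.

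**Figure D3:**
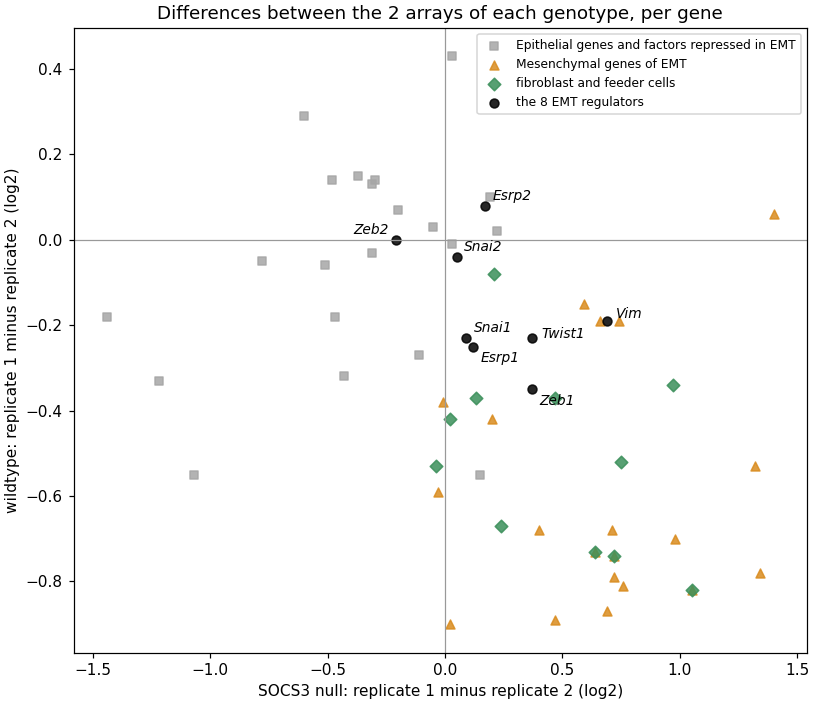
Each point is 1 tested gene, placed by the log2 difference of replicate 1 minus replicate 2 among the SOCS3 null arrays (horizontal axis) and among the wildtype arrays (vertical axis). Mesenchymal and fibroblast genes fill the lower right, while the epithelial genes spread to the left. Vim, Zeb1 and Twist1 also lie in the lower right, as do Snai1, Esrp1 and Snai2 nearer to the origin.

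The summed intensity of the 14 fibroblast and feeder markers on the array was 8623 and 7751 on the SOCS3 null arrays, against 3869.7 and 5865 on the wildtype arrays, with S100a6 alone at 5794 and 5971 on the SOCS3 null arrays, against 2367 and 3424 on the wildtype arrays. Of the 11 that were tested 1 was called higher, S100a6 (log2 change 1.04, limma adjusted p = 0.0395 over genes; not called at the level of probe sets), and 0 lower, with a median of 0.23. The receptor gene Pdgfrb, the surface marker gene Thy1 and the proteoglycan gene Dcn differed by 0.34, 0.37 and 0.78 (limma adjusted p = 0.11, 0.201 and 0.223 over genes); Lum, Fap and Meox1 lay below the filter and no marker was listed at 0. The markers of primitive and extraembryonic endoderm moved much further: 15 of 15 tested genes were called higher, with a median change of 4.68, and their summed intensity was 42969 and 46039 on the SOCS3 null arrays, against 1569.8 and 1566 on the wildtype arrays. Of these 15, 3, with Sox17 among them, had a wildtype mean below the filter floor and so passed the filter through the SOCS3 null arrays. Over all genes tested, 22.7% were called, 13.1% higher and 9.55% lower, and the median change was 0.00. Pdgfra, a receptor of primitive endoderm and of mesenchyme, and the laminin chain Lama1 rose by 5.23 and 5.15, the collagen chain Col4a1 by 5.22 and the endoderm factor Sox17 by 5.02 (3.37 to 6.93 over the alternatives). No gene of any list was called when 1 array was left out. The part of endoderm-type cells in the values of Snai1, Esrp1 and Esrp2 was not tested. Pou5f1, which encodes the defining factor OCT4 of ES cells, had 11567 and 10524 on the SOCS3 null arrays, against 10524 and 11675 on the wildtype arrays. Of 10 tested pluripotency genes 3 were called lower (Dppa4 by -0.64, Sox2 by -1.01 and Fgf4 by -1.29; Sox2 and Fgf4 had no probe set called in the fit over probe sets) and 0 higher; Nanog differed by -0.42 (limma adjusted p = 0.0565). Of 6 tested markers of mesoderm and primitive streak 2 were called higher and 0 lower: Pdgfra, counted above among the endoderm markers, and Eomes, with 0 of 2 probe sets called in the fit over probe sets. Eomes was also the 1 of 7 tested trophoblast markers called higher, and 1 was called lower (Tfap2c). Of 5 tested markers of blood and endothelium 3 were called higher (Cdh5, Cd68 and Tek) and 0 lower; Cdh5 passed the filter through the SOCS3 null arrays, and 3 further markers lay below it. Of 7 tested neural crest markers 1 was called higher (Ets1) and 1 lower (Foxd3). Foxd3 had 0 of 1 probe sets called in the fit over probe sets, and was not called without the filter. Of 7 tested neuroectoderm markers 0 were called higher and 4 lower (Tubb3, Map2, Neurod1 and Gbx2). Map2 had a SOCS3 null mean below the filter floor and passed the filter through the wildtype arrays.

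Epithelial genes and factors repressed in EMT were called in both directions. Of 21 tested, 5 were called higher, 3 lower and 13 were not called, with a median of 0.17. Cdh1 had intensities of 1259 and 1447 on the SOCS3 null arrays, against 1528 and 1458 on the wildtype arrays, a log2 change of -0.14 (SE 0.11, limma adjusted p = 0.397 over genes). Epcam fell by 1.22 (limma adjusted p = 0.0145; 1 of 2 probe sets called; -1.38 to -0.81 over the alternatives), with 1653 and 2054 on the SOCS3 null arrays, against 4526 and 4133 on the wildtype arrays. Grhl2, a transcription factor that maintains epithelia, fell by 2.02 (1 of 2 probe sets called; -2.24 to -1.18 over the alternatives), with 57.8 and 79.5 on the SOCS3 null arrays, against 342 and 308 on the wildtype arrays. The keratin gene Krt19 and the epithelial transcription factor Elf3 rose by 2.13 and 1.23.

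Mesenchymal genes were mostly not called: of 20 tested, 2 were higher, 0 lower and 18 not called, with a median of 0.16. Sparc, a matrix glycoprotein that parietal endoderm also makes, rose by 3 with 14534 and 14625 on the SOCS3 null arrays, against 1588 and 2069.8 on the wildtype arrays. Itga5, the fibronectin receptor chain, rose by 1.51 (1 of 3 probe sets called; 0.76 to 1.85 over the alternatives). Fn1 (fibronectin) differed by -0.33 (limma adjusted p = 0.428) and repeated the order of arrays seen in Vim, with 4119.8 and 2595 on the SOCS3 null arrays, against 3836 and 4388 on the wildtype arrays. Cdh2, N-cadherin, read 71.0 and 17.0 on the SOCS3 null arrays, against 33.3 and 31.4 on the wildtype arrays, so its SOCS3 null arrays enclosed both wildtype arrays. Mmp14 and Ccn2, a matrix protease and a matricellular protein, differed by 0.74 and 0.82 (limma adjusted p = 0.146 and 0.166 over genes); 1 of 3 probe sets of Mmp14 was called in the fit over probe sets.

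Of 14 tested intermediate filament genes other than Vim, with the linkers and lamins, 6 were called higher and 1 lower, with a median of 1.61. Of the 6, Krt8, Krt18 and Krt19 were also counted among the epithelial genes, and without the filter 3 of the list were called higher. Lmna, which encodes the A-type lamins, rose by 2.44 (1.29 to 2.54 over the alternatives), the linker gene Plec by 1.63 (1.05 to 1.76) and the keratins Krt8, Krt18 and Krt19 by 3.05, 2.91 and 2.13. Ina, a neuronal filament gene, had 8.38 and 5.44 on the SOCS3 null arrays, against 272 and 352 on the wildtype arrays, and fell by 3.83 (-5.32 to -2.40 over the alternatives). Its SOCS3 null mean lay below the filter floor, so Ina passed the filter through the wildtype arrays. Krt8 had 1628 and 3430.1 on the SOCS3 null arrays, against 221 and 332 on the wildtype arrays. Krt18 had 1520.2 and 4151 on the SOCS3 null arrays, against 299 and 342 on the wildtype arrays, so both were higher on SOCS3 null replicate 2, the reverse of the order in Vim.

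Among 13 other transcription factors of EMT, 4 were called higher, 0 lower and 9 not called, with a median of 0.10. Foxq1, a forkhead factor, rose by 3.78 (2.50 to 4.85 over the alternatives), with 319.8 and 418 on the SOCS3 null arrays, against 13.3 and 10.3 on the wildtype arrays. Hmga2, a chromatin protein that raises Snai1 and Twist1 expression in cultured epithelial cells, rose by 2.35, with 978 and 835 on the SOCS3 null arrays, against 148 and 183 on the wildtype arrays. Msx2, a homeobox gene, rose by 1.43 (0.83 to 1.88). Foxc2 of this list lay below the filter.

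Corepressors and regulators of protein stability of SNAI and ZEB were called both ways: of 18 tested, 3 were higher and 2 lower, with a median of -0.17. Without the filter 1 was called higher and 1 lower. Rcor1, among the 3 higher, had 0 of 3 probe sets called in the fit over probe sets. Ajuba, a LIM protein that SNAI1 uses as a corepressor, fell by 1.44, with 428 and 471 on the SOCS3 null arrays, against 1233 and 1253 on the wildtype arrays. Kdm1a, a histone demethylase recruited by SNAI1, fell by 0.68. Usp17la, of a deubiquitinase family that stabilises SNAI1 in human cells, rose by 1.63 from a dim wildtype level (0.86 to 2.33 over the alternatives), and Fbxw7, a ubiquitin ligase subunit, rose by 0.57.

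Of 20 tested genes of TGF-beta and related inputs, 6 were called higher and 4 lower, with a median of 0.23. The TGF-beta receptor gene Tgfbr3 rose by 2.35 (1.28 to 3 over the alternatives), with 1 of 2 probe sets called. Tgfbr2, a type II receptor gene outside the naming rule, was higher by 2.30 with both probe sets called (1.52 to 2.70 over the alternatives). Skil and Tgif1, which restrain SMAD signalling, fell by 1.92 and 0.93. The Notch ligand gene Jag1 fell by 1.01 (1 of 3 probe sets called, -1.16 to -0.72 over the alternatives).

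Genes with exons under ESRP control are each given by their brightest tested probe set, and exon use was not read. Of 19 tested, with other splicing factors of EMT among them, 2 were called higher and 1 lower, with a median of -0.01. Enah, an actin regulator, fell by 1.15 with all 6 of its probe sets called. Ctnnd1 (p120 catenin) rose by 0.78 (1 of 3 probe sets called) and Mbnl2, a splicing factor, by 2.20 (3 of 5; 1.19 to 2.44 over the alternatives). Srsf1, a splicing factor, differed by -0.31 (limma adjusted p = 0.0608).

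**Figure D4:**
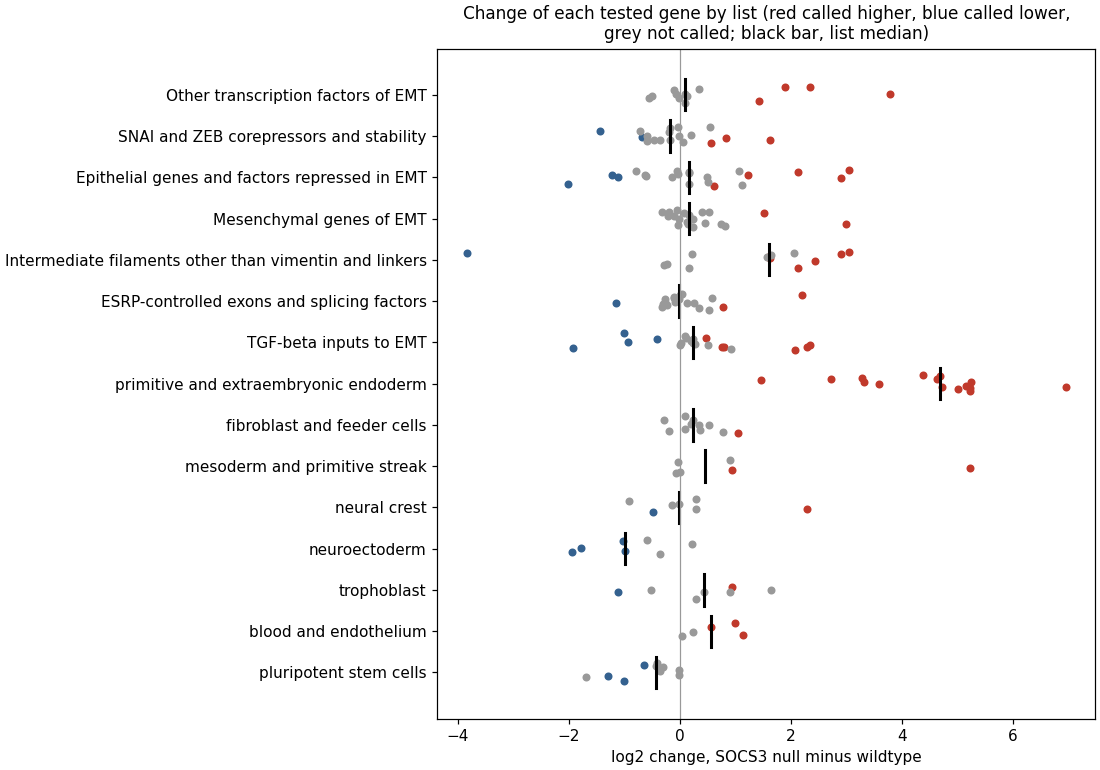
Log2 change, SOCS3 null minus wildtype, of each tested gene in the 7 lists around EMT and the 8 lists of cell type markers, with the list median as a black bar; red is called higher, blue called lower and grey not called. Epithelial and TGF-beta genes fall on both sides of zero, most mesenchymal and fibroblast genes lie near it, and all 15 endoderm markers lie above it.

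The genes most like Snai1 and Esrp1 over the 4 arrays were found by the root mean square distance between log2 values, after subtraction of each gene's own mean, among 12731 other genes. Nearest to Snai1 were Fhdc1 (distance 0.0693), Glipr2 (0.0722) and Slc39a4 (0.081). Fhdc1 had 130.1 and 141 on the SOCS3 null arrays, against 14.2 and 19.7 on the wildtype arrays. Glipr2 had 1069 and 1068 on the SOCS3 null arrays, against 182 and 224 on the wildtype arrays. Slc39a4 had 508 and 431 on the SOCS3 null arrays, against 85.4 and 113 on the wildtype arrays. Nearest to Esrp1 were Gli1 (0.0321), the cyclin gene Ccnd1 (0.0396) and Fndc3c1 (0.0581). Ccnd1 had 159 and 157 on the SOCS3 null arrays, against 543 and 652 on the wildtype arrays. With 2 arrays a genotype, a gene with a similar change between genotypes lies close by construction, and nothing else is read from the distance.

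**Figure D5:**
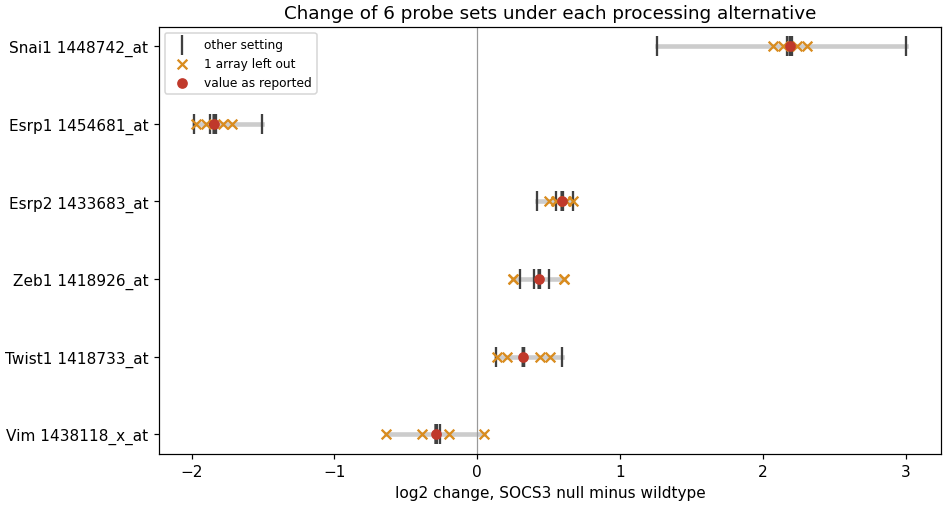
Log2 change, SOCS3 null minus wildtype, of the brightest probe set of 6 genes: the red point is the value as reported, crosses leave out 1 array, and vertical ticks are the other settings. Snai1 ran from 1.26 to 3 and Esrp1 from -1.98 to -1.51, while Vim crossed zero without SOCS3 null replicate 2.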

How the data were processed

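The series holds 4 arrays of mouse ES cell RNA. The deposited values are intensity values per probe set on a linear scale; how the authors summarised and normalized them is not stated in the labels. The array medians were nearly equal, so the values were not normalized again. The number of arrays limits the precision.

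The 64 control probe sets were left out. The platform annotation gave 34945 of the rest 1 gene symbol, 932 several and 9160 none; 34741 matched a RefSeq gene table (GRCm38.p6), with 0 symbols changed. Tests were run in R 4.3.3 with limma 3.58.1 over 27022 probe sets whose mean log2 value reached the 40th percentile, on log2(intensity + 16); the added 16 shrinks the changes of dim genes. Genotype was the only term in lmFit and eBayes, two-sided, with Benjamini-Hochberg adjustment over all of them. Gene lists were read from the same fit on the brightest probe set of each of 12732 genes, and adjusted p of list genes are from that fit. Changes are SOCS3 null minus wildtype with the standard error (SE), and errors of intensities are SD with n = 2. The fit was tested on simulated data.

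The members and lists were chosen with earlier results of these data known. Named genes were every member probe set, Socs3, the 4 genes with the smallest p in each pathway list and in the endoderm, fibroblast and pluripotency lists, Cdh1, Epcam, Cdh2, Fn1, and the 3 genes nearest to Snai1 and to Esrp1. Snai3 falls under that rule. The called genes of the other marker lists were named after their values were seen. So were Krt8, Krt18, Pou5f1, Tgfbr2, Rcor1, Acta2, Col3a1, Lum, Fap, Meox1 and Foxc2. Motifs were chosen likewise. Other settings tried were a pseudocount of 1 or 64, arrays quantile-normalized or centred on their medians, the filter removed or raised to the 60th percentile, a robust variance trend, a block for the replicate number, averaging over a gene's probe sets (lists), and omission of each array. Over the tested probe sets the deviations of same-numbered arrays correlated at -0.118, so the numbers were not taken as pairs. Figures were drawn with matplotlib 3.10.9.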

Additional observations from a re-analysis of the deposited data

How the results depend on the processing

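With all arrays kept, 114 of 121 values of the members' tested probe sets kept their direction and their side of the threshold; 4 lost the call, all of them the brighter Esrp2 probe set, and 3 changed sign at a size of at most 0.02. Those were Snai2 1418673_at (-0.02) and Zeb1 1443005_at (0.01) with quantile normalization, and Zeb1 1443005_at (0.00) with median centring. Members called higher numbered 1 in place of 2 without the filter, with the robust trend and with the replicate number as a block. The block gave 1993 called probe sets and no filter 1733, in place of 4283; under the block Esrp2 1433683_at reached an adjusted p of 0.0704. No label ties equal replicate numbers to a shared culture or day. With the numbers crossed, chosen after seeing the data because of the correlation of -0.118, 3845 probe sets were called, with 1 member higher and 1 lower. With any 1 array left out limma called 0 probe sets, so 0 members higher and 0 lower, while 5715 to 8552 probe sets had an unadjusted p under 0.05; the array left alone in its genotype is assumed to vary like the others. Of the changes that then reversed, Snai2 1418673_at ran from -0.01 to 0.03, Zeb2 1422748_at from -0.09 to 0.12, and Vim from -0.64 to 0.05 (1438118_x_at), -0.82 to 0.28 (1450641_at) and -0.62 to 0.13 (1456292_a_at). Snai2 1418673_at was 0.00 without wildtype replicate 1. Snai1 stayed between 2.07 and 2.31 and Esrp1 between -1.97 and -1.72. Of 30 list counts, 12 stayed within 1.5 times under every setting that kept all arrays, and 18 moved under at least 1. Most of the 12 were counts of 0 throughout, such as lower calls in the mesenchymal and endoderm lists, and so show no stability of a call. Without the filter the epithelial list had 2 higher and 2 lower, in place of 5 and 3, and the pluripotency list 0 lower in place of 3. The cause of these moves was not tested. Dim signal limits Zeb2, Twist1 and wildtype Snai1.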
